A study of Arabidopsis thaliana with 28 samples.

Results

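Chlorophyll is made in the plastid from glutamate, through 5-aminolevulinic acid and a chain of porphyrins. At protoporphyrin the path forks: iron insertion leads to haem, and magnesium insertion leads to chlorophyll. In flowering plants the reduction of protochlorophyllide needs light, so intermediates that build up in the dark become phototoxic at dawn, and the nuclear genes of the pathway are known to follow light and the circadian clock. Members of this pathway, 10 of the 33602 reference genes in the deposited tables, were followed by their gene identifiers in every library. HEMA1 (AT1G58290) encodes glutamyl-tRNA reductase, the committed step. CHLH (AT5G13630) and CHLI1 (AT4G18480) encode subunits of magnesium chelatase, and GUN4 (AT3G59400) encodes the porphyrin-binding protein that stimulates it. CRD1 (AT3G56940) encodes a subunit of the cyclase that closes the fifth ring, and DVR (AT5G18660) the divinyl reductase. PORA (AT5G54190), PORB (AT4G27440) and PORC (AT1G03630) encode the light-dependent protochlorophyllide oxidoreductases, and CAO (AT1G44446) the oxygenase that makes chlorophyll b.

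The libraries were RNA-seq of whole Arabidopsis thaliana seedlings aged 7 d, grown on half-strength MS medium in 16 h light and 8 h dark at 35 to 40 µmol light, with 1 library for each of 28 conditions. The groups were pif7 seedlings in an oscillating regime, Col-0 seedlings in the same regime, pif7 seedlings at constant 17 °C and Col-0 seedlings at constant 17 °C, each sampled at 7 times named by hours after lights on, ZT0, ZT4, ZT5 and ZT8, then ZT12, ZT16 and ZT20. In the oscillating regime the seedlings were at 27 °C from ZT4 to ZT12 and at 17 °C otherwise. The regime of each library was taken from the growth protocol, because the labels give 27 °C for every oscillating library whatever its time. Col-0 is the wild type, and pif7 lacks normal function of PIF7, a bHLH transcription factor known for growth responses to shade and warmth; the allele is not named in the labels.

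With 1 library per condition, no difference has a replicate of its own. A regime difference was therefore taken within pairs of the same genotype and time, over ZT5, ZT8 and ZT12 (the warm window, 6 pairs) and over ZT0, ZT4, ZT16 and ZT20 (the other times, 8 pairs). For the windows, its error came from the variation of the difference between times within each genotype. An adjusted p (limma, Benjamini-Hochberg over 21031 genes) there measures how constant a difference was across times. At single times the error came from disagreement between the genotypes, pooled over all times. For time of day it also came from disagreement between the genotypes, and for pif7 minus Col-0 from variation between pairs. Nothing in the labels says whether libraries came from separate cultures. All 10 genes passed the expression filter (at least 1 TPM in at least 2 libraries). PORA passed through its daytime libraries. Aligned depth was 1.32 to 2.82 gigabases per library, with group medians of 2.47 in oscillating pif7, 1.72 in oscillating Col-0, 2.02 in constant pif7 and 1.86 in constant Col-0. PIF7 itself had 1.91 to 13.1 TPM in pif7 libraries, against 8.42 to 38.6 TPM in Col-0 libraries, and was lower in pif7 in 14 of 14 pairs. Markers of green tissue and of root were detected in every library, as whole seedlings would give. Seed storage transcripts were traces, at most 11.4 TPM summed over 4 genes, with CRC listed at 0 in 10 libraries and SESA1 in 21. In such bulk samples, fewer cells of a type and less RNA per cell cannot be told apart.

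In the files' TAIR10 coordinates, PORC lies at chr1:907642-909376 (plus strand), CAO at chr1:16848359-16851224 (minus) and HEMA1 at chr1:21623726-21626200 (minus). CRD1 lies at chr3:21076505-21078443 (plus) and GUN4 at chr3:21948717-21949710 (minus). CHLI1 lies at chr4:10201672-10203469 (minus) and PORB at chr4:13725546-13727353 (plus). CHLH lies at chr5:4387334-4392227, DVR at chr5:6220781-6222228 and PORA at chr5:21990912-21992812, all minus. Promoter sequence is shown for 4 genes whose transcripts moved most between regimes or that carry motifs known from clock and light control. The 300 bases before each RefSeq gene start (assembly TAIR10.1) were searched on both strands for the G-box CACGTG, the PBE-box CACATG, the evening element AAATATCT and the GLK-associated motif CCAATC. A G-box was present in 7.1% of 27443 promoters, a PBE-box in 13.1%, an evening element in 5.6% and a CCAATC motif in 12.2%. The CAO window held a pair of G-boxes, starting 52 and 32 bases before the gene start, and a PBE-box at 72 bases, read as CATGTG. The CRD1 window held a G-box at 52 bases. PORB and PORA, a pair of related genes, each held an evening element, at 141 and 179 bases. PORB also held CCAATC at 219 and 22 bases, and GUN4 held it at 13 bases. Among windows with a match, those of PORB, GUN4 and CRD1 overlap the neighbouring genes AT4G27435, AT3G59410 and AT3G56930. The PORB match at 219 bases lies within AT4G27435. HEMA1, CHLH, CHLI1, PORC and DVR held none of these letters in their windows. The intergenic stretches that hold the matches are given 5′ to 3′ on the gene's strand, ending at the base before the gene start, with the motifs in capitals; the more distal PORB motif at 219 bases lies outside the stretch shown. They are chr1:16851272-16851471, minus strand, for CAO; chr3:21076316-21076504, plus strand, for CRD1; chr4:13725360-13725545, plus strand, for PORB; and chr5:21992815-21993014, minus strand, for PORA.
CAO: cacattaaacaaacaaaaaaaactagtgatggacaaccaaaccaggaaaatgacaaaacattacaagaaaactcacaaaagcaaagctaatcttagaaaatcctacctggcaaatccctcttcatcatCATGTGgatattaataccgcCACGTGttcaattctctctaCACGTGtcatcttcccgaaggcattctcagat
CRD1: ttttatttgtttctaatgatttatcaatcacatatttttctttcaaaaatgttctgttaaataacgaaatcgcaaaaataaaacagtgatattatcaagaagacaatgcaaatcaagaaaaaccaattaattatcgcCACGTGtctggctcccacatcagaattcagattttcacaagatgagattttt
PORB: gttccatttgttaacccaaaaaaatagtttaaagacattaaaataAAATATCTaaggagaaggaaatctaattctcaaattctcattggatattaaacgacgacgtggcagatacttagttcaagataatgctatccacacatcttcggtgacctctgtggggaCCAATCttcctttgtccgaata
PORA: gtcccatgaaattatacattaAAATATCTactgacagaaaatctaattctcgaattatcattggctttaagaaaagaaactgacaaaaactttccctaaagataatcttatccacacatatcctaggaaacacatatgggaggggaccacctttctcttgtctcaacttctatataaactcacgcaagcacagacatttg
A match is a description of these letters and was not tested as a binding site.

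Transcript levels spanned a wide range, and PORA stood far below the others. On the TPM scale, which is per length, the mean over 28 libraries was 897 ± 412 for CRD1, 532 ± 96.6 for CHLI1, 419 ± 254 for CHLH, 375 ± 196 for PORB and 361 ± 196 for HEMA1 (SD, n = 28, all conditions pooled). GUN4 followed at 225 ± 104, PORC at 175 ± 39.6, CAO at 165 ± 123 and DVR at 148 ± 25.7, and PORA averaged 2.10 ± 2.48. Only HEMA1 over GUN4 and DVR over PORA held in all 28 libraries. CHLH exceeded PORB in 12 libraries, PORC exceeded CAO in 14 and CAO exceeded DVR in 14, so those neighbours were not separated beyond their spread. CRD1 exceeded CHLI1 in 22 libraries, CHLI1 exceeded CHLH in 20, GUN4 exceeded PORC in 17 and PORB exceeded HEMA1 in 16. CRD1 overlaps the gene AT3G56950 on the opposite strand at its 3′ end, where that gene reached 44.6 TPM at most, and the strand setting of the counting is not given in the sources used here.

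All 10 genes varied with time of day in both regimes. In the constant regime the test over 7 times (limma F test, adjusted over 21031 genes) called 10 of 10, where 30.6% of all genes tested were called. In the oscillating regime, where time and temperature change together, it called 10 of 10, where 65.7% of all genes were called. At constant 17 °C the adjusted p was lowest for CAO, 1.05e-07, and highest for CHLI1, 0.015.

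**Figure D1:**
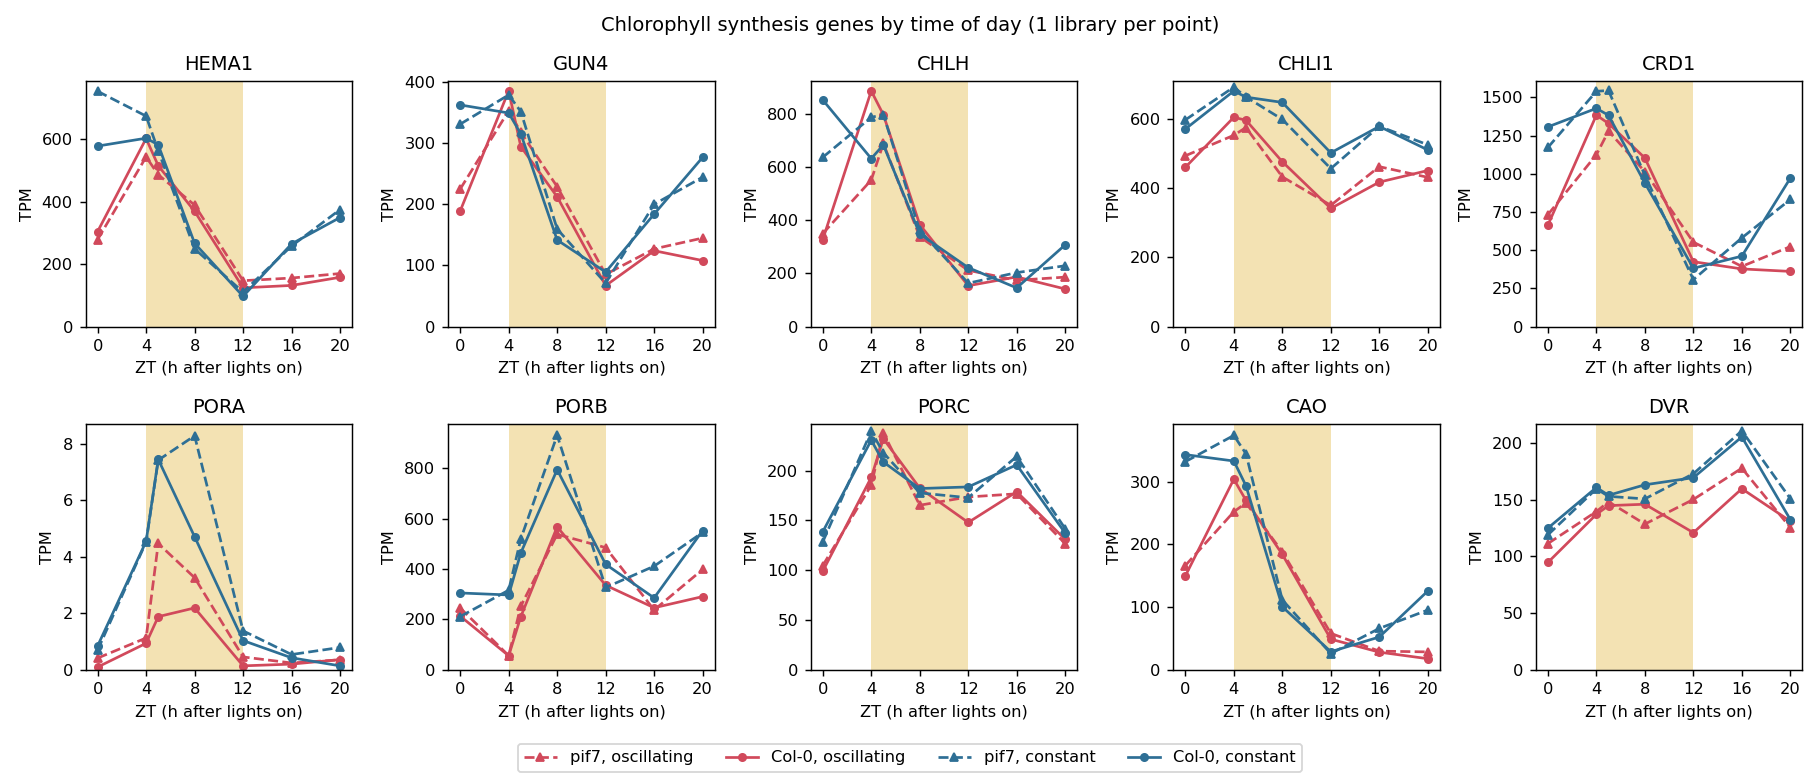
Level of each of the 10 genes (TPM, own linear axis per panel) against time in hours after lights on, 1 line per combination of regime and genotype and 1 library per point; shading marks 27 °C in the oscillating regime only. HEMA1, GUN4, CHLH, CRD1 and CAO peaked between ZT0 and ZT5, PORB peaked at ZT8, and CHLI1, PORC and DVR varied less.

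HEMA1 and GUN4 peaked in the morning, at ZT0 or ZT4, and had their lowest level at ZT12 in each of the 4 time series. HEMA1 in pif7 seedlings, from ZT0 to ZT20, had 279, 544, 487, 389.6, 147, 156 and 170.1 TPM under oscillation, against 755, 675, 564, 249, 111, 259 and 375 TPM at constant 17 °C. HEMA1 in Col-0 had 305, 603, 516, 369.8, 124, 132 and 158 TPM under oscillation, against 579, 604, 583, 267, 97.1, 265 and 349.8 TPM at constant 17 °C. The oscillating libraries were the lower ones of their pairs at ZT0, ZT4, ZT5, ZT16 and ZT20 in both genotypes, and the higher ones at ZT8 and ZT12. HEMA1 at ZT20 was at 45.3% of the constant level in pif7 and at 45.2% in Col-0 on the TPM scale.

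GUN4 binds the substrate and product of magnesium chelatase. GUN4 in pif7 seedlings, from ZT0 to ZT20, had 225, 352, 317, 229, 85.3, 127 and 145 TPM under oscillation, against 331, 378, 351, 159, 70.8, 199.8 and 244 TPM at constant 17 °C. GUN4 in Col-0 had 189, 385, 294, 212, 66.9, 124 and 108 TPM under oscillation, against 362, 349, 315, 141, 89.1, 184 and 276 TPM at constant 17 °C. The oscillating level was lower in both genotypes at ZT0, ZT5, ZT16 and ZT20 and higher in both at ZT8, while the genotypes went opposite ways at ZT4 and ZT12.

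CAO, which acts at the end of the path, had a wide day range. CAO in pif7 seedlings, from ZT0 to ZT20, had 166, 252, 266, 188, 58.1, 29.7 and 28.5 TPM under oscillation, against 332, 374, 344, 111, 25.9, 66.0 and 95.2 TPM at constant 17 °C. CAO in Col-0 had 149.6, 304, 270.2, 184, 48.8, 28.1 and 17.7 TPM under oscillation, against 343, 333, 293, 101, 28.8, 52.3 and 126 TPM at constant 17 °C. Peak over lowest level was 9.33 in oscillating pif7, 17.2 in oscillating Col-0, 14.4 in constant pif7 and 11.9 in constant Col-0. The lowest level of CAO came at ZT20 in the oscillating regime and at ZT12 in the constant regime, in both genotypes. At constant 17 °C CAO was already higher at ZT16 and ZT20 than at ZT12, whereas under oscillation it was lower at both times than at ZT12.

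CRD1 was the most abundant of the 10. CRD1 in pif7 seedlings, from ZT0 to ZT20, had 733, 1126, 1280.1, 1014, 553, 394 and 524 TPM under oscillation, against 1173, 1541, 1546, 991, 307, 581 and 832 TPM at constant 17 °C. CRD1 in Col-0 had 664, 1385, 1329.7, 1104, 425, 378 and 361 TPM under oscillation, against 1308, 1429, 1383, 939.8, 382, 461 and 972 TPM at constant 17 °C. Its lowest level stood at ZT16 in oscillating pif7 and at ZT20 in oscillating Col-0, against ZT12 in both genotypes at constant 17 °C. At ZT12 the oscillating level was above the constant level in both genotypes, and at ZT0, ZT4, ZT16 and ZT20 it was below.

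CHLH encodes the large, porphyrin-binding subunit of magnesium chelatase. CHLH in pif7 seedlings, from ZT0 to ZT20, had 349, 551, 688, 338, 211, 174 and 186 TPM under oscillation, against 636, 786, 796, 362, 163, 203 and 229 TPM at constant 17 °C. CHLH in Col-0 had 327, 885, 796, 383, 153, 187 and 141 TPM under oscillation, against 852, 631, 683, 348, 222, 145 and 307 TPM at constant 17 °C. The groups overlapped at most times: the genotypes went opposite ways at ZT4, ZT5, ZT8, ZT12 and ZT16. Only at ZT0 and ZT20 were both oscillating libraries below their constant partners.

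CHLI1, the ATPase subunit of the chelatase, was lower under oscillation in 14 of 14 pairs. CHLI1 in pif7 seedlings, from ZT0 to ZT20, had 493, 552, 575, 432, 350.3, 462 and 431 TPM under oscillation, against 597, 692, 663, 598, 456, 578 and 525 TPM at constant 17 °C. CHLI1 in Col-0 had 460.0, 604, 596, 476, 341, 417 and 451 TPM under oscillation, against 570.5, 680.4, 663, 647, 502, 578 and 510.2 TPM at constant 17 °C. The oscillating level was between 68.0% and 89.9% of the constant level at every time in both genotypes.

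The 3 oxidoreductase genes differed from each other in level and in timing. PORB, the main isoform in green seedlings together with PORC, peaked at ZT8 in all 4 series. PORB in pif7 seedlings, from ZT0 to ZT20, had 245, 56.1, 252, 538, 485, 237 and 398 TPM under oscillation, against 211, 316, 519.9, 931, 327, 411 and 545 TPM at constant 17 °C. PORB in Col-0 had 213, 55.7, 211, 567, 336, 246 and 291 TPM under oscillation, against 305, 297, 464, 794, 419, 285 and 552 TPM at constant 17 °C. At ZT4 both oscillating libraries were far below every other PORB library, at 17.8% of the constant level in pif7 and at 18.7% in Col-0. The oscillating level stayed below the constant level in both genotypes at ZT5 and ZT8, and at ZT12 the pif7 pair went the other way from the Col-0 pair.

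PORA is known for its abundance in dark-grown seedlings and its repression by light, and it was close to the filter here. PORA in pif7 seedlings, from ZT0 to ZT20, had 0.414, 1.13, 4.47, 3.26, 0.454, 0.242 and 0.352 TPM under oscillation, against 0.698, 4.52, 7.42, 8.28, 1.38, 0.54 and 0.79 TPM at constant 17 °C. PORA in Col-0 had 0.0963, 0.938, 1.88, 2.19, 0.139, 0.201 and 0.361 TPM under oscillation, against 0.846, 4.55, 7.45, 4.71, 1.03, 0.425 and 0.139 TPM at constant 17 °C. PORA peaked at ZT5 or ZT8 in each series, and 13 of 14 pairs were lower under oscillation, Col-0 at ZT20 being the exception. At ZT4 it was at 24.9% of the constant level in pif7 and at 20.6% in Col-0. Its fold changes below are on the log2(scaled TPM + 1) scale, which understates the change of a gene at this level.

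PORC, the isoform that remains expressed in mature green tissue, had the narrowest range of the 3. PORC in pif7 seedlings, from ZT0 to ZT20, had 105, 185, 238, 165, 174, 177 and 127 TPM under oscillation, against 128, 239.6, 218, 178, 173, 214 and 142 TPM at constant 17 °C. PORC in Col-0 had 99.0, 193, 232, 182, 148, 179 and 131 TPM under oscillation, against 139, 231, 209, 182, 184, 206 and 137 TPM at constant 17 °C. The oscillating libraries were lower in both genotypes at ZT0, ZT4, ZT16 and ZT20, and higher in both at ZT5.

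DVR reduces the vinyl side chain of the chlorophyll precursors. DVR in pif7 seedlings, from ZT0 to ZT20, had 111, 139.6, 148, 129, 150.3, 178 and 125 TPM under oscillation, against 119, 159.7, 153, 151, 173, 211 and 151 TPM at constant 17 °C. DVR in Col-0 had 94.7, 137, 145, 146, 121, 159.7 and 131 TPM under oscillation, against 125, 161, 154, 163, 169, 205 and 133 TPM at constant 17 °C. DVR peaked at ZT16 in all 4 series and was lower under oscillation in 14 of 14 pairs, between 71.4% and 98.9% of the constant level.

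At the other times, when both regimes were at 17 °C or, at ZT4, at the temperature step, 8 of the 10 genes fell in the oscillating regime relative to the constant regime. CAO fell by 1.28 ± 0.24 on the log2 scale (SE; limma, adjusted p = 0.0086), PORB by 1.06 ± 0.27 (0.036) and HEMA1 by 0.95 ± 0.16 (0.0043). CRD1 fell by 0.75 ± 0.14 (adjusted p = 0.0093) and GUN4 by 0.71 ± 0.15 (0.014). The smaller decreases were 0.41 ± 0.09 for CHLI1 (adjusted p = 0.015), 0.38 ± 0.07 for PORC (0.0066) and 0.34 ± 0.07 for DVR (0.018). CHLH and PORA did not pass, with log2 differences of -0.56 ± 0.18 (adjusted p = 0.080) and -0.61 ± 0.18 (0.059). Of all genes tested, 5.31% were called in this comparison and 2.7% were called lower. The median log2 difference of the 10 genes was -0.66, against 0.008 over all 21031 genes.

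HEMA1, CHLI1, CRD1, PORC, CAO and DVR were lower in 8 of 8 pairs at the other times, GUN4, PORA and PORB in 7 and CHLH in 6. The count of 8 was 2 without ZT16 (HEMA1 and CRD1) and 2 without ZT20 (CAO and PORC), while all 8 log2 differences stayed negative. Calls over all genes fell too, from 1117 to 350 without ZT16 and to 359 without ZT20. Without ZT16 CAO (-1.31) and PORB (-1.18) were lost without shrinking, while GUN4 (-0.68), CHLI1 (-0.34), PORC (-0.36) and DVR (-0.28) shrank. Without ZT20 CHLI1 (-0.41), PORB (-1.13) and DVR (-0.35) were lost without shrinking, while HEMA1 (-0.83), GUN4 (-0.54) and CRD1 (-0.60) shrank. PORB at the other times passed in 8 of 15 alternatives and was at -0.59 (adjusted p = 0.13) without ZT4. In each genotype alone, 0 of 10 genes passed (limma), where 0.304% of all genes were called in pif7 and 0.78% in Col-0, and 10 of 10 in pif7 and 9 of 10 in Col-0 had an unadjusted p under 0.05. The summed level of 4 green tissue markers moved the same way, at 12266 to 19770 TPM (median 13578) in the 8 oscillating libraries of the other times, against 14668 to 21555 TPM (median 19191) in the 8 constant libraries. Of these markers, LHCB1.3 fell by 0.59 and LHCB5 by 0.61 on the log2 scale. The summed level of 6 root markers had a median of 1848 TPM in those oscillating libraries and 1770 TPM in the constant ones, a sum that is mostly PYK10. Gene by gene, 6 of 6 root markers lay below 0, with a median log2 difference of -0.22, and 0 of 6 passed (limma), also at an unadjusted p under 0.05. The seed storage sum, a trace, had a median of 1.67 TPM in the oscillating and 0.324 TPM in the constant libraries. Both of its tested genes, CRA1 and OLEO1, rose. Of 4 seed genes only these 2 passed the filter at 1 TPM, a level that the sum did not reach in constant pif7 (at most 0.648 TPM). The part of tissue composition in the decreases was not tested.

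**Figure D2:**
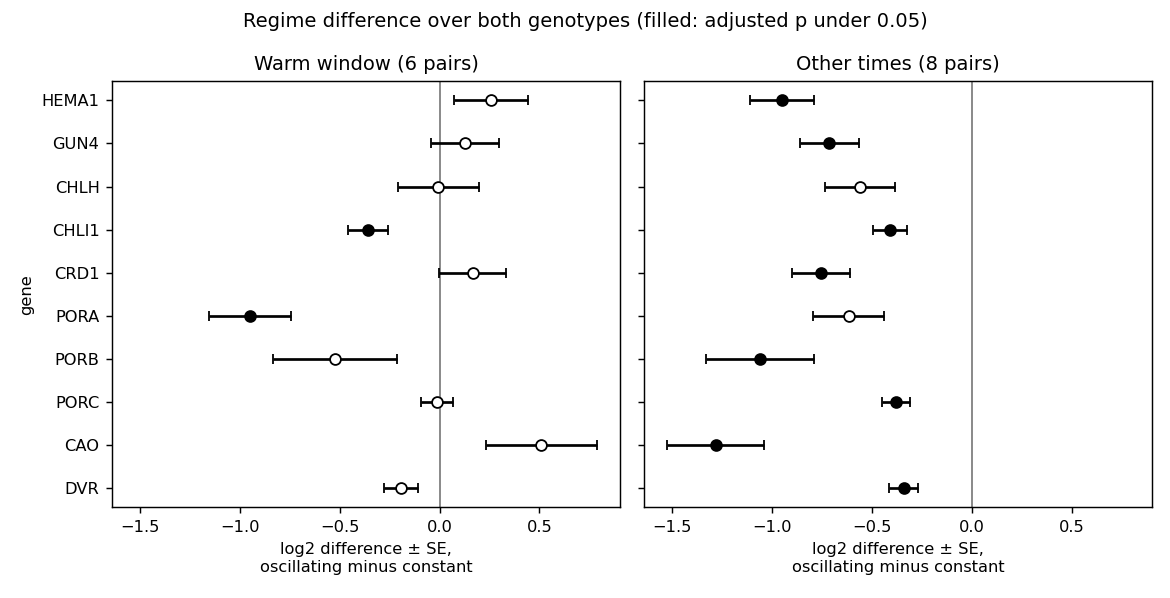
Log2 difference, oscillating minus constant, of each gene in the warm window (6 pairs) and at the other times (8 pairs), with bars of 1 SE from limma; filled points passed the adjusted threshold of 0.05. At the other times 8 of 10 genes passed and all 10 lay below 0, and in the warm window CHLI1 and PORA passed.

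In the warm window fewer of the genes were called. CHLI1 fell by 0.36 ± 0.10 (SE; limma, adjusted p = 0.023) and PORA by 0.95 ± 0.20 (0.0065), so 2 of 10 were called, both lower, where 19.4% of all genes were called and 8.97% were called lower. The median log2 difference of the 10 was -0.01, against -0.0045 over all genes. CAO was at 0.51 ± 0.28 (adjusted p = 0.22), PORB at -0.52 ± 0.31 (0.26) and HEMA1 at 0.26 ± 0.19 (0.35). CRD1 was at 0.17 ± 0.17, GUN4 at 0.13 ± 0.17, DVR at -0.19 ± 0.09, CHLH at -0.01 and PORC at -0.01. In each genotype alone, 0 of 10 genes passed in the warm window (limma), where 3.74% of all genes were called in pif7 and 4.41% in Col-0, and 2 of the 10 had an unadjusted p under 0.05 in each. The count was 0 without ZT8 and 1 without ZT12, where CHLI1 was lost, and CHLI1 and PORA stayed below 0 in every alternative run. In the 6 oscillating libraries of the warm window the summed green tissue markers were at 14933 to 19551 TPM (median 16757). The 6 constant libraries had 16640 to 22101 TPM (median 20739). Of 4 green markers 3 lay below 0, and 1 was called, RBCS1A, which fell by 0.40. LHCB1.3 was at -0.31 (limma, adjusted p = 0.11), and RCA went the other way, at 0.08. Of 6 root markers 5 lay below 0 in the warm window and COBL9 fell by 0.49 (limma, adjusted p = 0.018). The seed markers CRA1 and OLEO1 were at 1.29 and 0.41 on the log2 scale, with medians of 0.515 and 0.404 TPM. The seed sum reached 11.4 TPM in oscillating pif7, but at most 0.648 TPM in constant pif7 and 1.29 TPM in constant Col-0. The filter at 1 TPM thus leaned towards seed genes that rose, and no p is given for them. The part of these tissues in the decreases was not tested.

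Taken time by time, with 2 pairs per time, PORB and PORA were called around the start of the warm window and CAO later in it. At ZT4 the calls were PORB, which fell by 2.46 ± 0.18 (limma, adjusted p = 4.5e-05), and PORA, which fell by 1.49 ± 0.23 (0.0048), where 4.77% of all genes were called and 2.23% were called lower. Both were called again at ZT5, PORB at -1.04 ± 0.18 (adjusted p = 0.0049) and PORA at -1.05 ± 0.23 (0.018), where 7.59% of all genes were called and 3.56% were called lower. At ZT8 PORB was at -0.72 ± 0.18 (adjusted p = 0.029), PORA at -1.06 ± 0.23 (0.016) and CHLI1 at -0.54 ± 0.13 (0.022), and CAO rose by 0.72 ± 0.19 (0.034), where 10.5% of all genes were called. PORB lost its ZT8 call with no filter (limma, adjusted p = 0.076), on unscaled values (0.099) and with quantile normalization (0.22). PORA lost it with a pseudocount of 0.1 (0.13), CHLI1 with quantile normalization (0.083) and CAO with no filter (0.093). CAO was the only call at ZT12, at 1.00 ± 0.19 (adjusted p = 0.0060), where 16.2% of all genes were called and 9.13% were called higher. Whether the ZT4 samples were taken before or after the temperature step is not given in the sources used here.

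After the warm window the direction of CAO turned. At ZT16, 6 genes fell, where 3.05% of all genes were called and 1.64% were called lower: CAO by 1.20 ± 0.19 (limma, adjusted p = 0.013), HEMA1 by 1.07 ± 0.18 (0.015), GUN4 by 0.82 ± 0.15 (0.023), CHLI1 by 0.61 ± 0.13 (0.035), DVR by 0.51 ± 0.12 (0.047) and PORC by 0.45 ± 0.11 (0.047). The count at ZT16 was 2 on unscaled and on quantile-normalized values and 3 without ZT4, without ZT5 or without ZT8. At ZT20, 4 genes fell, where 0.875% of all genes were called and 0.661% were called lower, with CAO at -2.39 ± 0.19 (adjusted p = 9.5e-05), HEMA1 at -1.30 ± 0.18 (0.0059), GUN4 at -1.21 ± 0.15 (0.0032) and CRD1 at -1.21 ± 0.18 (0.011). CAO at ZT20 was at 30.0% of the constant level in pif7 and at 14.1% in Col-0. At ZT0, 3 genes fell, where 0.799% of all genes were called and 0.48% were called lower, with HEMA1 at -1.24 ± 0.18 (adjusted p = 0.0074), CAO at -1.15 ± 0.19 (0.016) and GUN4 at -0.81 ± 0.15 (0.032). With only the 2 pairs of ZT0 in the fit, none of the 10 passed at that time. HEMA1 and CAO lost their ZT0 call otherwise only with no filter on low values. GUN4 lost it there too, on unscaled values (limma, adjusted p = 0.072), with quantile normalization (0.078) and with no variance trend (0.054). It was also lost without ZT4, without ZT5, without ZT8 or without ZT16. These tests share libraries with the comparison over the other times and are not independent of it.

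**Figure D3:**
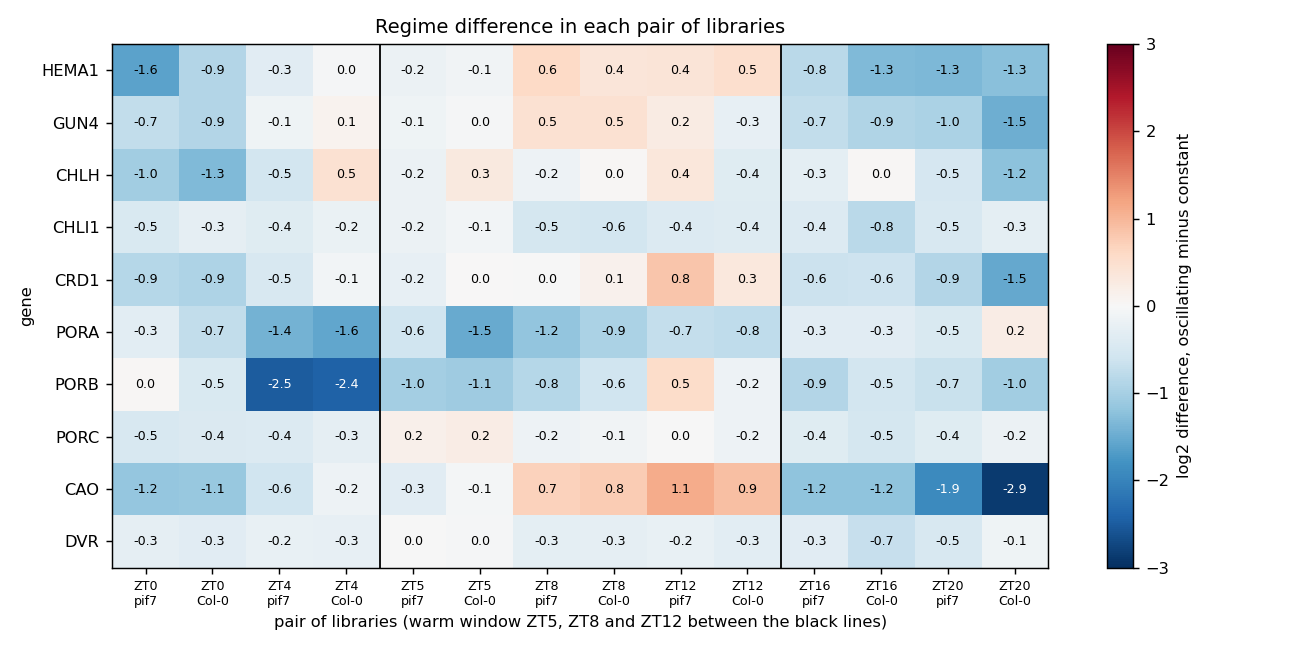
Log2 difference, oscillating minus constant, of each gene (rows) in each pair of libraries (columns, pif7 and Col-0 by time), on a colour scale centred at 0 with the value in each cell. PORB and PORA are lowest at ZT4, and CAO is highest at ZT12 and lowest at ZT20, in both genotypes.

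The difference between the windows was itself tested, in a comparison added after the data were seen. The warm window minus the other times was called, and above 0, for 5 of 10 genes, where 9.76% of all genes were called and 5.29% were called higher. It was 1.79 ± 0.37 for CAO (limma, adjusted p = 0.011), 1.21 ± 0.25 for HEMA1 (0.0098), 0.92 ± 0.22 for CRD1 (0.021), 0.84 ± 0.23 for GUN4 (0.033) and 0.37 ± 0.11 for PORC (0.042). CHLI1 was at 0.05, DVR at 0.15, PORB at 0.54, CHLH at 0.55 and PORA at -0.33, none past the threshold. The count was 0 without ZT8 and 1 without ZT12. HEMA1 passed in 13 of 14 alternatives, CAO in 12 and CRD1 in 10, but GUN4 in 6 and PORC in 5, with PORC at 0.24 (adjusted p = 0.17) on unscaled values.

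No regime difference was shown to differ between pif7 and Col-0, and the errors of that comparison were wide. The regime difference in pif7 minus that in Col-0 lay between -0.15 and 0.24 on the log2 scale over the 10 genes and both windows, with SE from 0.14 to 0.62. The interaction of genotype and regime called 0 of 10 genes in the warm window and 0 at the other times (limma), where it called 0% of all 21031 genes in each, and 0 of the 10 had an unadjusted p under 0.05 in either, with 279 and 177 of all genes under that mark. Over 14 pairs of the same regime and time, pif7 minus Col-0 called 0 of 10 genes, where 0.361% of all genes were called, and 1 of the 10, PORA, had an unadjusted p under 0.05. PORA was at 0.27 ± 0.08 (SE; limma, adjusted p = 0.21) and was higher in pif7 in 12 of 14 pairs. The other 9 lay between -0.04 and 0.10, with SE from 0.03 to 0.08. Taken apart, pif7 minus Col-0 called 0 of 10 genes in the constant regime, 0 in the warm window and 0 at the other times of the oscillating regime, where 0.0903%, 0.119% and 0.119% of all genes were called.

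Other genes of the pathway also fell. Of 20 further genes of chlorophyll synthesis, 19 passed the filter (HEMB2 did not). At the other times 8 of the 19 fell and none rose (limma, adjusted p under the threshold), where 2.7% of all genes were called lower. Among them were HEME1 and HEME2, uroporphyrinogen decarboxylases, at -0.78 and -0.60, CHLP, the geranylgeranyl reductase that makes the phytol tail, at -0.78, and CHLM, the magnesium protoporphyrin methyltransferase, at -0.60. In the warm window 6 of the 19 fell and none rose, where 8.97% of all genes were called lower. Among them were CHLI2, the second chelatase ATPase subunit, at -0.58, the glutamyl-tRNA synthetase gene ERS at -0.48, HEME2 at -0.43 and HEMC, porphobilinogen deaminase, at -0.40. The median log2 difference of the 19 was -0.29 at the other times and -0.25 in the warm window. CHLI2, HEME2, HEME1, CHLP and CHLM passed in all 15 alternatives, ERS was lost without ZT8 and without ZT12, and HEMC was lost in 4 alternatives.

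**Figure D4:**
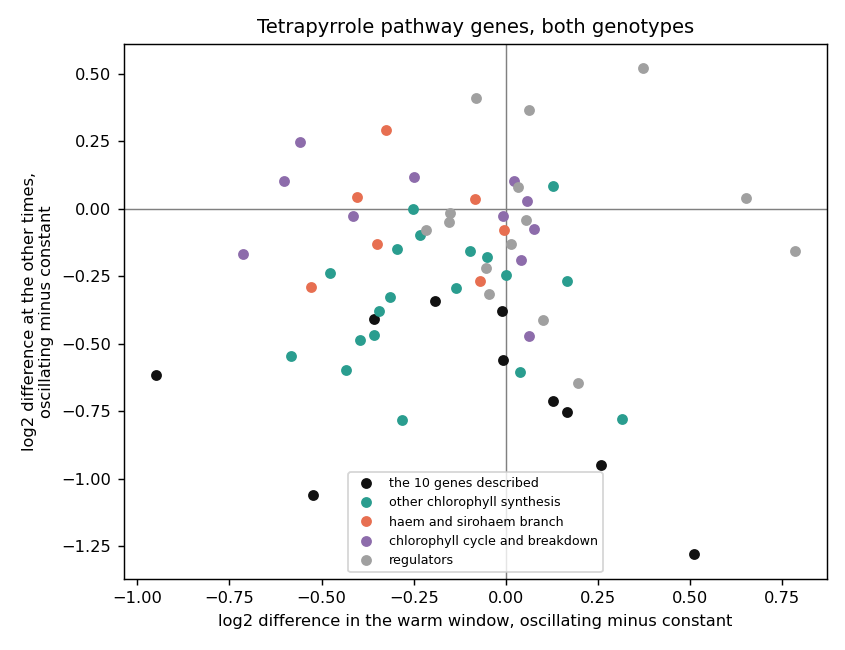
Log2 difference, oscillating minus constant, in the warm window and at the other times, 1 point per gene. Colours mark the 10 genes, the other genes of chlorophyll synthesis, the haem and sirohaem branch, the chlorophyll cycle and breakdown, and regulators. All points are filled, whether or not the gene passed the adjusted threshold of 0.05. Of the other synthesis genes 6 fell in the warm window and 8 at the other times.

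Genes of the haem and sirohaem branch, which share the precursors, included 4 of 7 that fell in the warm window, where 8.97% of all genes were called lower: HY2, phytochromobilin synthase, at -0.53, the ferrochelatases FC1 at -0.40 and FC2 at -0.33, and the haem oxygenase HO2 at -0.35. At the other times 1 of 7 was called, the haem oxygenase HO1, at -0.27, where 5.31% of all genes were called. FC2 passed in 7 of 15 alternatives and HO1 in 7 of 15; HY2 and HO2 were lost without ZT8, and FC1 in 3 alternatives.

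Among 11 genes of the chlorophyll cycle and breakdown, 2 fell in the warm window, the chlorophyllase gene CLH1 at -0.71 and NYC1, a chlorophyll b reductase, at -0.56, and 1 at the other times, SGRL, a magnesium dechelatase-like gene, at -0.47. Of all genes, 19.4% were called in the warm window (8.97% lower) and 5.31% at the other times (2.7% lower). With counts this small, an excess over these shares was not tested. CLH1 passed in 9 of 15 alternatives, NYC1 in 8 and SGRL in 12. Among 15 regulators, 2 rose in the warm window, GLK2, an activator of photosynthesis genes, at 0.79, and PIF1, a bHLH repressor of the pathway in the dark, at 0.65. That is a smaller share than the 19.4% called over all genes in either direction. Over all genes, 2197 of 21031 were called higher there. At the other times, where 2.7% of all genes were called lower, 2 regulators fell. They were SRP43, a chloroplast signal recognition particle protein that also protects synthesis enzymes, at -0.41, and FLU, the repressor of glutamyl-tRNA reductase activity in the dark, at -0.32. GLK2 passed in 6 of 15 alternatives and PIF1 in all 15, SRP43 in 10 and FLU in 12. The deposited tables also give SRP43 the symbol CAO, and the oxygenase was matched by its identifier.

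Across 28 libraries HEMA1, GUN4, CHLH, CRD1 and CAO followed each other closely, described without a test since the libraries share times and regimes. Pearson's r of log2 values was 0.966 for HEMA1 with GUN4, 0.963 for CRD1 with CAO, 0.946 for HEMA1 with CAO and 0.944 for CHLH with CAO. PORC and DVR had r = 0.806 with each other. The lowest of the 45 pairs was PORB with GUN4, at -0.251. Among 15719 genes averaging at least 5 TPM, with the 10 genes themselves left out, the gene most like HEMA1 and GUN4 was HCF107, a photosystem II assembly factor gene (r = 0.965 and 0.959). ABA1, the zeaxanthin epoxidase gene, was most like CHLH and CRD1 (r = 0.965 with each), and ABCF5 most like CAO (0.958). GAPA-2, a chloroplast glyceraldehyde-3-phosphate dehydrogenase subunit gene, was most like CHLI1 (r = 0.965). For PORB it was ALDH6B2 (0.898), for PORC AT2G44060 (0.908), for PORA AT2G43140 (0.893) and for DVR PyrD (0.887).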

How the data were processed

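RNA from whole seedlings was sequenced in 28 libraries. Per the submitters' processing notes, reads were processed with HISAT2 and StringTie on TAIR10; versions and the strand setting are not given in the sources used here. The deposited tables hold a coverage signal, FPKM and TPM per gene. The deposited TPM is another kind of unit than a strict TPM, because assembled loci sum to 1000000 per library and reference genes are listed again among them (sum over reference genes 1010427 to 1034801). TPM of 33602 reference genes was used; coverage and FPKM, made by the authors with StringTie per the file headers, gave only the depth estimate.

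TPM was divided by median-ratio factors (0.879 to 1.15), filtered at 1 TPM in at least 2 libraries (21031 genes) and tested as log2(value + 1) with limma 3.58.1 in R 4.3.3 (variance trend, Benjamini-Hochberg, threshold 0.05). The fit for the windows had a term for each genotype and time and regime terms for the warm window and the other times in each genotype. The fit for single times had a regime term for each time instead. Fits of pif7 minus Col-0 had a term for each regime and time, with genotype terms. Those for time of day had time and genotype, in each regime apart. The alternatives were other pseudocounts, filters, scalings, no variance trend, fewer pairs and leaving out each time. The fits were also run on simulated libraries with independent noise and the same added effect in every library of a comparison. That setting does not cover regime differences that vary between the times of a window. Genes were matched by identifier; the files give CRD1, CHLH, DVR, CHLI1 and PORC other symbols (ACSF, CCH1, PCB2, CHL11 and POR C). Promoters and symbols of genes outside the lists came from RefSeq TAIR10.1, which matched 32835 identifiers. The 10 genes, the pathway lists and the rule to name up to 4 called genes per list, by size, were chosen with earlier results of these data known.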

Additional observations from a re-analysis of the deposited data

Results flagged for a closer look

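The genes below were picked out because their regime difference was not the same in the warm window as at the other times, by a direct test of that difference (limma, adjusted over 21031 genes). The comparison was chosen after seeing the data. CAO differed most, with 1.79 on the log2 scale, HEMA1 by 1.21, CRD1 by 0.92, GUN4 by 0.84 and PORC by 0.37, each higher in the warm window relative to the other times. In the warm window CAO was higher under oscillation in 4 of 6 pairs and at the other times in 0 of 8. HEMA1 was likewise higher in 4 of 6 and 0 of 8 pairs, CRD1 in 4 of 6 and 0 of 8, GUN4 in 3 of 6 and 1 of 8, and PORC in 2 of 6 and 0 of 8. Pairs were counted on scaled log2 values. On unscaled TPM, PORC was also slightly higher in Col-0 at ZT8 (100.2% of constant) and in pif7 at ZT12 (100.4%).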

How the results depend on the processing

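Among the 10 genes, 2572 values were recomputed under alternatives, log2 differences and, for time of day, adjusted p. Of these, 2445 kept their side of the threshold, 101 lost the call and 26 gained it. In all, 0 called values changed sign, while 86 uncalled values, counted among the 2445, did. Counts of the 10 genes called moved by more than 1.5 times as follows, and the cause was not tested. In the warm window (2 called) the count was 1 with a mean of at least 5 TPM, which removes PORA, 1 with only its own pairs, and from 0 (without ZT8) to 2 with a time left out. At the other times (8 called) it ranged from 2 (without ZT16 or without ZT20) to 8 with a time left out. For the warm window minus the other times (5 called) it was 3 with no filter, 3 unscaled, 3 with quantile normalization, and with a time left out 3 without ZT0, 0 without ZT8, 1 without ZT12, 3 without ZT16 and 2 without ZT20. At ZT0 (3 called) it was 1 with no filter and 0 with only its own pairs. At ZT4 and ZT5 (2 called each) it was 1 with a mean of at least 5 TPM, and at ZT5 also 1 with a pseudocount of 0.1. At ZT8 (4 called) it was 2 with no filter. At ZT12 (1 called) it was 2 with a pseudocount of 0.1, unscaled, with quantile normalization, with no variance trend, without ZT5 and without ZT16, and 3 with a mean of at least 5 TPM and without ZT20. At ZT16 (6 called) it was 2 unscaled and with quantile normalization, and 3 with only its own pairs, without ZT4, without ZT5 and without ZT8. Unscaled TPM gave a median over all genes at the other times of 0.11 on the log2 scale, against 0.008 on scaled values, with 1266 genes higher and 334 lower, against 550 and 567; the 10 genes then had 7 calls there, all lower. Over all genes, 4083 were called in the warm window (1254 without ZT8, 2006 without ZT12, 2345 with only its own pairs) and 1117 at the other times (556 without ZT4, 681 without ZT8, 350 without ZT16, 359 without ZT20, 713 with no filter).

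There is no fit with a block by replicate number: the labels carry no such numbers and each condition has 1 library; the pairs used are libraries of the same genotype and time, or of the same regime and time. Depth limits PORA, which was below 1 TPM in all libraries of ZT0, ZT16 and ZT20, and the number of read counts behind each TPM is not given.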
